A study of Homo sapiens with 16 samples.

Results

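In MDA-MB-231, a human line from a triple-negative breast carcinoma, clone TTP-E11 was set against the empty-vector clones EV-A and EV-B. The comparison used 12 of the 16 libraries of the series, 4 per clone, and all 14857 genes of the deposited table. The libraries were taken by clone name, and no measured value chose them. The difference of a gene was the mean of E11 minus the average of the EV-A and EV-B means, each on the log2(normalized count + 1) scale. The 4 libraries of TTP-H3, the other clone with the same plasmid, entered the same fit, where they helped to set the spread, and were compared with E11 to tell what was particular to it.

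The line is mesenchymal-like and without estrogen receptor, progesterone receptor or amplified HER2. All cells carried a stably integrated tet-off system, in which doxycycline keeps the introduced gene silent, and a second stable plasmid, either empty (EV) or with tristetraprolin (TTP). Per the labels, G418 at 400 µg/mL and hygromycin B at 100 µg/mL kept both plasmids under selection. Doxycycline at 2 µg/mL is stated for the TTP cells, and a washout of the drugs for at least 24 h preceded experiments. Each line stood for 1 clone, called a biological quadruplicate by the submitters, so the p-values rest on how cultures of a clone varied. TTP, the history of doxycycline and the clone cannot be told apart in E11 alone.

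TTP, encoded by ZFP36, is a zinc-finger protein that binds AU-rich elements in the 3′ untranslated region (UTR) of messenger RNAs. It recruits deadenylases, and the bound mRNA is shortened and degraded. Its known targets include mRNAs of cytokines, growth factors and cell-cycle regulators, and many breast tumours have low TTP.

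The nonamer TTATTTATT, written in DNA letters, is the core of the sites that TTP binds best. The stretches below show it, in capitals, in the 3′ UTRs of 3 reported TTP targets that were lower in E11 than in both EV clones (LIF, PIM1 and VEGFA) and of 2 that were higher (TNFAIP3 and DUSP1). They were read 5′ to 3′ on the strand of the gene from GENCODE 29 transcripts on GRCh38. The positions are chr22:30240958-30240986 for LIF (minus strand), chr6:37174985-37175013 for PIM1, chr6:43786286-43786314 for VEGFA and chr6:137882298-137882326 for TNFAIP3 (plus strand). The site of DUSP1 is at chr5:172768643-172768671 (minus strand). For LIF, PIM1 and DUSP1 only the first of 2 or more matches is shown.
LIF: ctccgggcccTTATTTATTatttaaacat
PIM1: tgttatgtatTTATTTATTtatttatttg
VEGFA: ttgttatcatTTATTTATTggtgctactg
TNFAIP3: gtaattcactTTATTTATTttattacaaa
DUSP1: gggctggtccTTATTTATTtaacttcacc

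The 12 libraries held 14380767 to 22066098 reads on the listed genes. Titles and library names disagreed: 3 of the 4 E11 libraries have titles that say EV, and the groups here follow the library names. Replicate 4 of EV-B and replicate 3 of H3 stood apart from their clones, with root mean square deviations of 0.143 and 0.174 log2 units against 0.0841 to 0.118 for the others. Several counts that moved with these libraries are given with and without them, but not all. Of 15 markers that define MDA-MB-231 and related lines or their opposites, 9 were listed. VIM, the mesenchymal intermediate filament, had 23170 normalized counts in E11 and CD44 had 10220, while ESR1 and PGR were not among the genes analysed here. ERBB2, the HER2 gene, was listed at 2862 in E11, EPCAM at 247.2 and CD24 at 39.77. CD44 and CAV1 were lower than in both EV clones (log2 differences from EV of -0.54 and -0.66). ERBB2 and EGFR were higher than in both (0.35 and 0.18).

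The level of ZFP36 was examined first. It was 10941, 10160, 10322 and 10505 normalized counts in the 4 E11 libraries. The EV-A libraries had 282.2, 226.5, 247.7 and 277.8, and the EV-B libraries 213.5, 234, 222.6 and 218.2. The groups did not overlap, and the E11 mean was 43.6 times the EV mean. The exact two-sided permutation test of 4 against 8 libraries reached its minimum of p = 0.00404, and limma gave a log2 difference of 5.45 ± 0.0472 (SE, adjusted p = 3.02e-32). The level therefore matched the library names and not the titles. The deposited counts do not separate transcripts of the plasmid from those of the chromosomal gene.

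The related genes ZFP36L1 and ZFP36L2 encode proteins of the same family that bind similar elements, and both were lower in E11. ZFP36L1 was at 2244, 2308, 2228 and 2179 in E11, below every EV library, where the lowest was 3161. ZFP36L2 was at 742 ± 39.7 in E11, 2210 ± 66.6 in EV-A and 1669 ± 120 in EV-B (SD, n = 4 each). The log2 differences from EV were -0.62 and -1.37 (limma adjusted p = 1.46e-15 and 1.35e-22).

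Across all genes, 9598 (64.6%) passed at an adjusted p under 0.05 in limma, 4846 higher (32.6%) and 4752 lower (32%) in E11. At an unadjusted p under 0.05 there were 9997 (67.3%). Against EV-A alone 9373 passed (63.1%, 31.8% higher and 31.3% lower), and against EV-B alone 8819 (59.4%, 29.9% higher and 29.5% lower). Because EV-B and EV-A themselves differed at 5468 genes (36.8%, with 20.2% higher and 16.6% lower in EV-B), a stricter class was used. A gene was called outside both EV clones when E11 differed from EV-A and from EV-B with the same sign at an adjusted p under 0.05, and all 4 E11 libraries lay above or below all 8 EV libraries. This class held 5964 genes (40.1%), 2995 higher (20.2%) and 2969 lower (20%). With values rescaled to the upper quartile, which moved the median of all genes to 0.0476, it held 3514 higher and 2553 lower, so the even split depended on the scaling. Of the remaining calls, 3316 (22.3%) had an E11 mean on the same side of both EV means without meeting the full rule. In 318 (2.14%) the E11 mean lay between the EV means, 165 higher (1.11%) and 153 lower (1.03%) than their average. A difference of at least 1 log2 unit from each EV clone was met by 538 genes that were higher (3.62%) and by 167 that were lower (1.12%), so large differences were more often upward.

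**Figure D1:**
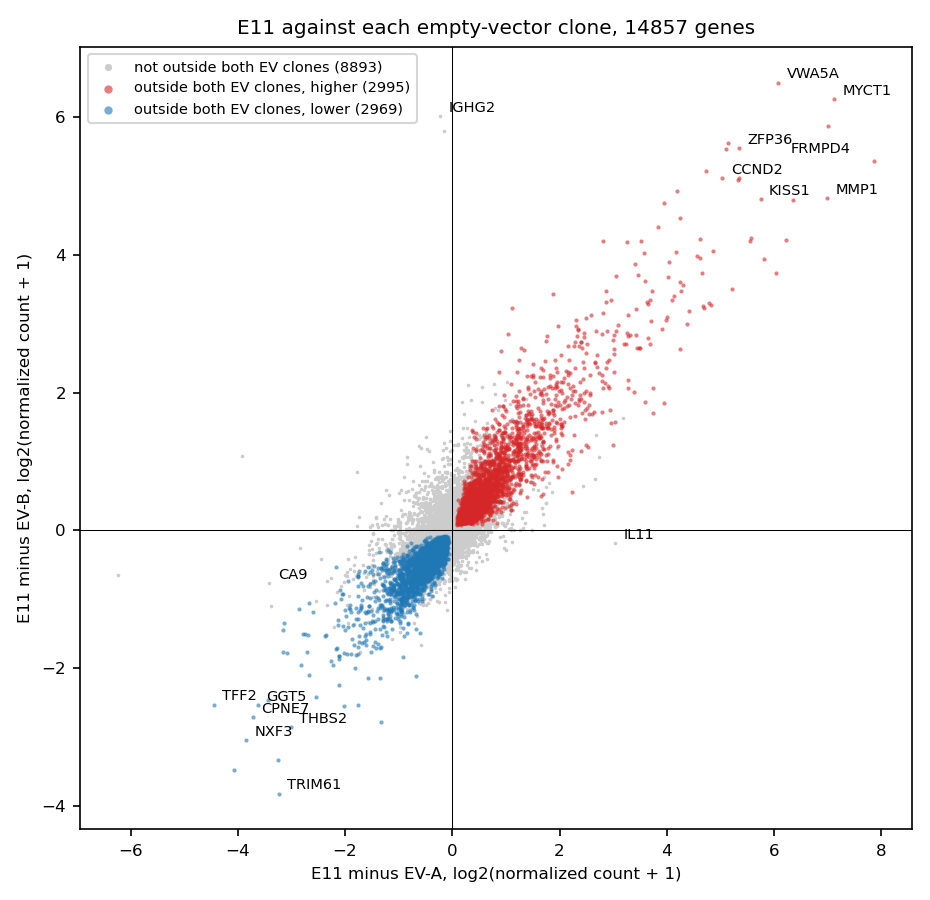
Log2 difference of E11 from EV-A (horizontal) and from EV-B (vertical), 1 point per gene for 14857 genes, on the log2(normalized count + 1) scale. Red and blue points are the 2995 higher and 2969 lower genes outside both EV clones; IL11, IGHG2 and CA9 lie far from the diagonal because the EV clones differ there.

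Genes that were nearly silent in both EV clones lead the higher group. VWA5A, which encodes a protein with a von Willebrand factor A domain, had 186.8, 170.7, 194.8 and 175.1 normalized counts in the 4 E11 libraries. In the 8 EV libraries it had between 0.9283 and 3.55. This is 731 reads against 12, a scaled ratio of 124 with an exact binomial 95% interval of 70.3 to 240. Such intervals cover counting error only, and the genes were chosen by the size of these same differences. MYCT1, first described as a target of MYC, had 683 reads in E11 and 6 in the EV libraries (interval of the ratio 106 to 631). The calmodulin-dependent phosphodiesterase PDE1C had 625 and 8 reads (ratio 158, 79.9 to 369). NFATC4, a calcium-responsive transcription factor, had 235 and 4 (ratio 119, 45.9 to 441). NKX2-1, a homeobox factor of lung and thyroid, had 161 reads in E11 and 1 in the EV libraries (ratio 327, 57.8 to 12977). NKX2-1 overlaps annotated antisense and same-strand genes, so with strand unstated its reads are uncertain. APBA2, an adaptor that binds the amyloid precursor protein, had 480 and 20 reads (ratio 48.7, 31.2 to 80.4).

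Further members of this group had low to moderate levels in the EV clones. MMP1, the interstitial collagenase, had 5301, 5746, 5353 and 5398 normalized counts in E11. It had 37.39, 53.84, 35.5 and 42.6 in EV-A and 160.7, 148.2, 184.6 and 311.2 in EV-B. The E11 libraries lay close together and far above both clones, although EV-B was also above EV-A, and the log2 difference was 6.99 from EV-A and 4.82 from EV-B. MMP1 overlaps the antisense gene WTAPP1. KISS1, the precursor of kisspeptin, was at 1446 ± 57 in E11, 25.89 ± 1.84 in EV-A and 50.93 ± 5.62 in EV-B (SD, n = 4 each; limma adjusted p = 6.85e-11). FRMPD4, a scaffold of synapses, was at 488.1 ± 27 in E11 and at 1.325 ± 1.12 and 11.22 ± 3.12 in EV-A and EV-B. The D-type cyclin CCND2 was at 196.8 ± 15.7 against 5.012 ± 0.551 and 5.173 ± 2.97, with annotated genes overlapping it on both strands.

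The lower group held genes at low and at high EV levels, and those with more reads are given first. THBS2, a matricellular thrombospondin, had 43.88, 49.04, 49.15 and 43.32 in the E11 libraries. The lowest of the 8 EV libraries had 283 and the highest 412.6, so the ranges were far apart (log2 difference -2.94 ± 0.133 SE, limma adjusted p = 2.13e-18). GGT5, a gamma-glutamyltransferase, had 30.09, 28.45, 33.06 and 22.12 in E11. It had 361.2 ± 24.1 in EV-A and 170 ± 26 in EV-B (SD, n = 4 each). PHLDA2, an imprinted growth regulator, was at 307.7 ± 31.3 in E11 against 1341 ± 74 and 1457 ± 59.7. The filaggrin gene FLG, of the outer skin layer, was at 228.1 ± 15.2 against 1328 ± 37.9 and 1227 ± 55.1, and RCSD1, a regulator of the actin-capping protein, at 86.27 ± 14.5 against 548.4 ± 16.2 and 377.4 ± 82.1. FLG and RCSD1 each overlap an annotated antisense gene.

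Further lower genes had few reads in E11. CPNE7, a copine that binds phospholipids in the presence of calcium, had 11.28, 3.924, 10.72 and 6.452 in E11, 112.8 ± 20.3 in EV-A and 56.19 ± 15.3 in EV-B. The trefoil peptide gene TFF2 had 5 reads in E11 and 201 in the EV libraries, an EV-to-E11 ratio of 19.8 (exact binomial 95% interval 8.35 to 61.7). TRIM61, of the RING-finger family of ubiquitin ligases, had 5 and 163 reads (ratio 16.1, 6.75 to 50.2), and a neighbouring transcript overlaps it on the same strand. NXF3, of the nuclear export factor family, had 1 and 108 (ratio 53.2, 9.36 to 2122). The noncoding IGFL2-AS1 had 20 and 654 (ratio 16.1, 10.4 to 26.6). PLEKHS1, with a pleckstrin homology domain, was at 14.95 ± 2.32 against 171.5 ± 13 and 89.79 ± 29.1. In each of these 6 genes every E11 library was below every EV library, which the rule required.

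**Figure D2:**
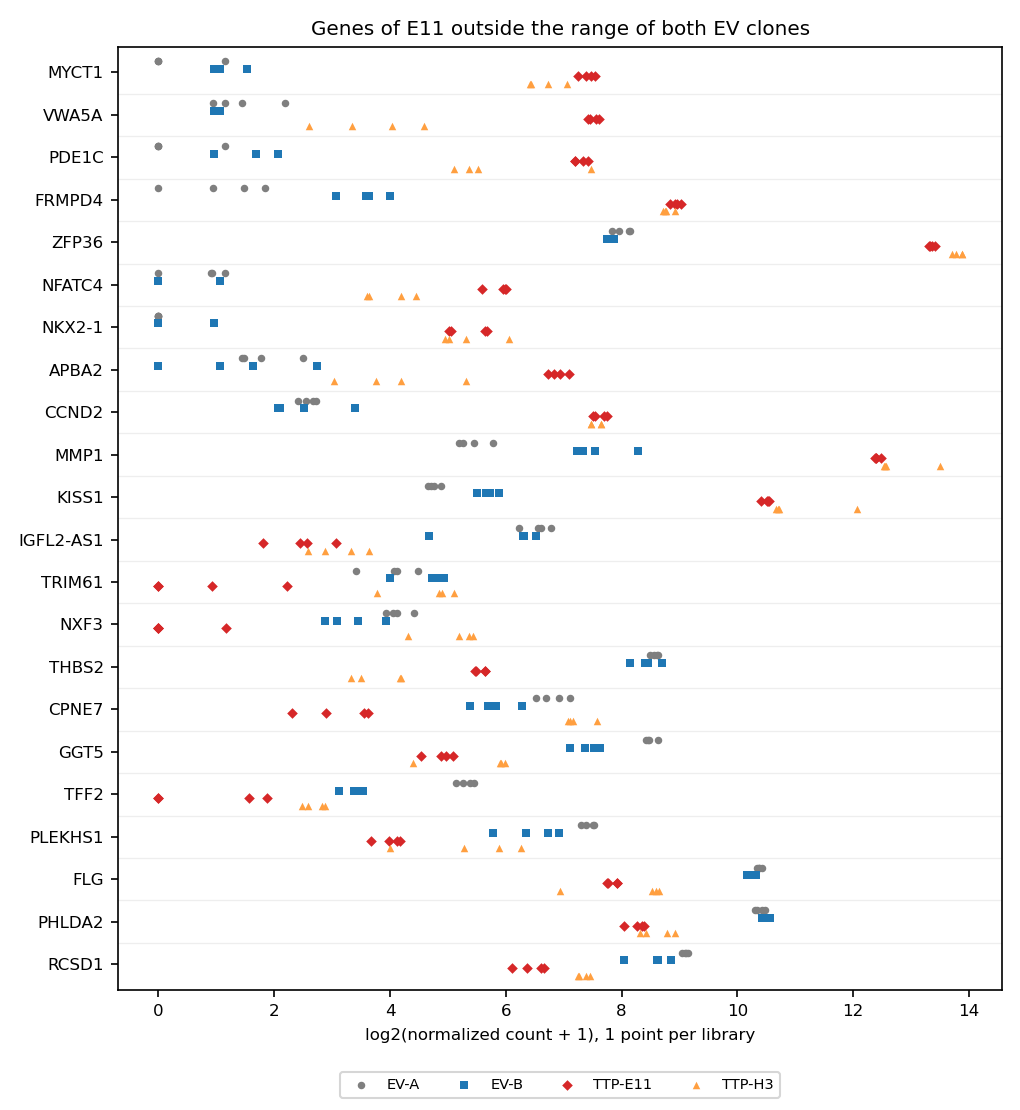
Log2(normalized count + 1) in each of the 16 libraries for the 11 higher and 11 lower genes outside both EV clones with the largest smaller difference from the EV clones. Red diamonds (E11) do not overlap the grey circles (EV-A) or blue squares (EV-B); the orange triangles (H3) lie with E11 for some genes and with EV for others.

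Messenger RNAs with reported TTP binding were compared next. Of 30 genes on this list 26 were measured. In E11, 13 were lower (background 20%) and 5 higher (background 20.2%) outside both EV clones, with a median log2 difference of -0.25 against 0 over all genes. LIF, a cytokine of the interleukin 6 family, had 288.4, 286.4, 295.8 and 282 in E11. It had 942, 878.1, 861.6 and 858.3 in EV-A and 842.9, 786.7, 811.5 and 850.1 in EV-B. The highest E11 library was thus far below the lowest EV library, and the log2 difference was -1.56 ± 0.0511 (SE, limma adjusted p = 2.77e-22). CCND1, the D-type cyclin of most epithelial cells, was at 7561 ± 78.5 in E11 against 15510 ± 275 and 17450 ± 672 (SD, n = 4 each). The serine/threonine kinase PIM1 was at a log2 difference of -1.08 from EV and VEGFA, the endothelial growth factor, at -1.05. The urokinase gene PLAU and its receptor PLAUR had log2 differences of -0.75 and -0.96, and CDKN1A, the p21 inhibitor of cyclin-dependent kinases, of -1.05. HIF1A, the oxygen-regulated transcription factor subunit, had a difference of -0.90. PIM1, VEGFA and HIF1A were singled out after their values were seen.

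The 5 higher members were MMP1, TNFAIP3, DUSP1, MYC and LATS2. TNFAIP3, the A20 inhibitor of NF-kB signalling, had 344.8, 316.8, 309.2 and 350.2 in E11. It had 143.8 ± 9.77 in EV-A and 132.2 ± 14.5 in EV-B (SD, n = 4 each). DUSP1, a phosphatase that turns off MAP kinases, was at 634.4 ± 34.3 against 244.8 ± 9.27 and 334.3 ± 30.3, and MYC, singled out after its value was seen, had a log2 difference of 0.73. The nonamer in capitals above is present in TNFAIP3 and DUSP1 as it is in LIF, PIM1 and VEGFA, genes that were chosen to show both directions. IL11, whose annotated UTR holds 6 nonamers, was at 247.3 ± 15.1 in E11, 29.39 ± 5.26 in EV-A and 281.4 ± 32.1 in EV-B, which places it beside EV-B. Its averaged difference of 1.43 therefore rested on EV-A.

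The annotated 3′ UTRs of 12589 listed genes were searched on the transcribed strand for the core heptamer TATTTAT and for the nonamer TTATTTATT, which contains it. The heptamer was present in 35.1% of all these genes. It was present in 51.4% of the genes lower in E11 than both EV clones and in 24.1% of those higher. The nonamer was present in 9.33%, 13.9% and 6.08% of the same sets. The reverse complement of the heptamer, ATAAATA, which has the same base composition, was present in 30.5% of all, 38.3% of the lower and 25.1% of the higher genes. UTR length is one thing the sets differ in, with medians of 1698 bases for the lower and 1190 for the higher genes. Per kilobase of UTR the heptamer occurred 0.318 times in all genes, 0.419 in the lower and 0.223 in the higher, against 0.254, 0.283 and 0.22 for its reverse complement. In all 5 length classes the share with the heptamer was above that of all genes in the lower set and below it in the higher set, and the same held for the reverse complement. In the middle length class, for example, 32.3% of all, 44.7% of the lower and 19.5% of the higher genes held the heptamer, against 28.2%, 32% and 25.2% for its reverse complement.

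The share of lower genes moved with the number of heptamers. Of 8166 genes with 0 heptamers, 16.7% were lower and 26.3% higher outside both EV clones, with a median log2 difference of 0.06. With 1 heptamer (2525 genes) these were 30.1% and 16.5%, with 2 (1036 genes) 35.4% and 15.3%, and with 3 or more (862 genes) 36.9% and 12.3%. The medians were -0.07, -0.13 and -0.14 in these 3 classes. Between the EV clones, EV-B minus EV-A had medians of 0.02, 0.01, 0 and 0 over the 4 classes, so these classes differed little between the EV clones. The heptamer was present in 8.73% of UTRs under 500 bases and in 76.3% of those of 4000 or more. The number classes were not split by UTR length or counted for the reverse complement, so number and length were not told apart. A match is a run of letters and not a measured binding site.

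Lists of named pathways were described by their counts beside the background of 20.2% higher and 20% lower outside both EV clones. The background was 3226 higher and 3274 lower genes without replicate 4 of EV-B and replicate 3 of H3. Genes of G2 and mitosis were mostly lower. Of 40 measured, 35 were lower and 0 higher outside both EV clones, with a median log2 difference of -0.48. HMMR, a spindle-associated hyaluronan receptor, was at 194.9 ± 6.87 in E11, 380.6 ± 32.5 in EV-A and 439.9 ± 21.2 in EV-B (SD, n = 4 each), and the mitotic kinases PLK1 and AURKA had log2 differences of -0.75 and -0.74. Of 12 replication-dependent histone genes, 8 were lower and 0 higher (median -0.90), among them HIST1H2AC at 183.1 ± 17.4 against 416.6 ± 30.7 and 408.7 ± 72.5. Of 40 genes of G1/S and DNA replication, 13 were higher and 8 lower (median 0.18). The list's median was 0.31 against EV-A and 0.08 against EV-B, and 28 genes were higher and 0 lower in EV-B than in EV-A. The count of higher members was 19 without replicate 4 of EV-B and replicate 3 of H3. MCM5 and MCM6, subunits of the replicative helicase, had log2 differences of 0.40 and 0.43, and RRM2, a subunit of ribonucleotide reductase, of -0.74.

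Stress pathways were counted in the same way. Of 19 measured targets of NRF2, the transcription factor of the oxidative stress response, 11 were lower and 0 higher outside both EV clones (median -0.33). GCLM, a subunit of the enzyme that limits glutathione synthesis, had 749.8, 788.6, 766.7 and 726.3 in E11. It had 1716, 1734, 1801 and 1726 in EV-A and 1659, 1731, 1792 and 2176 in EV-B. TXNRD1, thioredoxin reductase, had a log2 difference of -0.94, and the reductase AKR1C1 was at 13.9 ± 5.16 against 127.3 ± 18.7 and 38.43 ± 7.67. Of 20 genes of the unfolded protein response, 11 were lower and 2 higher (median -0.23). HSPA5, the main chaperone of the endoplasmic reticulum, was at 13070 ± 387 against 20950 ± 614 and 17760 ± 269, and EDEM1, which takes part in the degradation of misfolded glycoproteins, had a log2 difference of -0.59. In this list 8 genes were lower and 0 higher in EV-B than in EV-A.

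The other stress lists held genes in both directions, beside shares over all genes of 20.2% higher and 20% lower. The counts of the integrated stress response and of p53 targets were near these shares. Of 20 heat shock genes 6 were lower and 1 higher outside both EV clones (median -0.10). The higher one, HSPA6, was at 41.76 ± 6.6 in E11 against 22.74 ± 9.95 and 15.7 ± 6.02, and the small chaperone gene HSPB8 was at 44.59 ± 11.7 against 88.64 ± 6.35 and 97.5 ± 15.6. Without replicate 4 of EV-B and replicate 3 of H3, 3 heat shock genes were higher. Of 22 genes of the integrated stress response 3 were higher and 5 lower (median 0.05). The list's median was 0.05 against EV-A and -0.1 against EV-B, and 10 genes were higher and 2 lower in EV-B than in EV-A. ASNS, asparagine synthetase, was higher by 0.70 log2 units, by 1.05 from EV-A and 0.35 from EV-B. DDIT4, an inhibitor of mTOR signalling, was lower, at 1102 ± 19.1 against 2426 ± 146 and 2486 ± 316. Of 20 p53 targets 5 were higher and 5 lower. BBC3, a pro-apoptotic member of the BCL2 family, was higher by 0.95 log2 units, and CDKN1A was lower. Of 6 metallothionein-list genes 2 were higher (MT1A and MT1E) and 1 lower, the zinc exporter gene SLC30A1. The count of higher genes was 3 without replicate 4 of EV-B and replicate 3 of H3.

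Of 35 measured genes that respond to hypoxia or act in glycolysis, 23 were lower and 0 higher outside both EV clones, with a median of -0.53. The neuronal enolase ENO2 was at 559.5 ± 14.1 against 1734 ± 97.8 and 1279 ± 150, and PGK1, phosphoglycerate kinase, at 9167 ± 224 against 16270 ± 426 and 12700 ± 725. The carbonic anhydrase CA9 was at 24.08 ± 11.3 in E11, 239.7 ± 17.4 in EV-A and 38.84 ± 12.3 in EV-B. Here 24 of the 35 genes were also lower in EV-B than in EV-A, and 4 were higher. The list's median was -0.76 against EV-A and -0.42 against EV-B, the same sign with a different size. Of 25 genes of cholesterol synthesis and its control, 6 were lower and 0 higher, but 18 were lower without replicate 4 of EV-B and replicate 3 of H3.

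Among inflammatory signalling genes more were higher than lower. Of 20 measured NF-kB and inflammatory genes, 10 were higher and 1 lower outside both EV clones (median 0.63). IL32, a proinflammatory cytokine, had 185.6, 189.3, 224.3 and 200.9 in E11. It had 72.33 ± 6.78 in EV-A and 59.81 ± 8.83 in EV-B. TRAF1, an adaptor of TNF receptors, was at 483 ± 11.1 against 223.7 ± 10.5 and 183 ± 27.6, and LTB, lymphotoxin beta, at 21.01 ± 5.45 against 7.387 ± 3.44 and 3.741 ± 1.56. The lower member was CXCL8, the neutrophil chemokine interleukin 8, at 19.38 ± 0.855 against 38.99 ± 9.45 and 30.38 ± 2.83. Of 12 genes of inflammasomes and pyroptosis 9 were higher and 0 lower (median 0.66). CASP1, the caspase that matures interleukin 1 beta and interleukin 18, had 239 reads in E11 and 9 in the EV libraries, a ratio of 53.9 (exact binomial 95% interval 27.9 to 119). CASP4, which senses cytosolic lipopolysaccharide, was at 936.6 ± 30.4 against 325.6 ± 22.5 and 351.8 ± 13.2, and IL18 at 355.1 ± 17.6 against 146.1 ± 16.8 and 143 ± 29.2. CARD16 lies beside CASP1 and resembles it closely, so its 136 and 6 reads are uncertain.

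Interferon-stimulated genes differed between the EV clones. Of 30 measured, 15 were lower and 6 higher in E11 against the mean of the EV clones, but only 4 lower and 2 higher lay outside both. Between the EV clones 25 of the 30 were lower in EV-B than in EV-A and 0 higher. The list's median was -0.59 against EV-A and 0.17 against EV-B, so its sign turned with the control clone. RSAD2, an antiviral enzyme, was at 116.6, 147.1, 159.1 and 171.4 in E11, 422.1, 440.9, 440.8 and 399.4 in EV-A and 331.2, 342, 303.5 and 133.5 in EV-B, and the last EV-B library was lower than the other 3. Members outside both EV clones included OAS3, a sensor of double-stranded RNA (log2 difference -0.58), and IRF7, a regulator of interferon genes (0.76). Without replicate 4 of EV-B and replicate 3 of H3, 8 were lower outside both.

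Cytosolic ribosomal protein genes were higher by small amounts. Of 60 measured, 42 were higher and 0 lower outside both EV clones, with a median of 0.27. RPS27 was at 8173 ± 345 in E11 against 5767 ± 156 and 6456 ± 239, and RPL3 at 24070 ± 856 against 17460 ± 332 and 20470 ± 458. The median was 0.37 against EV-A and 0.15 against EV-B, and 56 of the 60 were also higher in EV-B than in EV-A. Reads may be shared with processed pseudogenes of these genes, so single values are uncertain.

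Surface and matrix genes moved individually. Of 12 receptors and ligands of the EGF family 5 were lower and 3 higher. The ligand genes AREG, EREG and TGFA had log2 differences of -1.94, -1.40 and -1.39, and the receptor ERBB3 had 199.4, 178.5, 189.4 and 181.6 in E11 against 48.4 ± 6.52 in EV-A and 42.43 ± 1.52 in EV-B. Of 22 mesenchymal genes 6 were higher and 4 lower outside both, near the shares over all genes (20.2% and 20%). CDH2, N-cadherin, was at 144.4 ± 5.57 against 24.01 ± 3.18 and 40.24 ± 4.36, TAGLN, an actin-binding protein of smooth muscle, at 629.8 ± 38.1 against 81.98 ± 5.95 and 149.3 ± 17.4, and CTGF, a matricellular growth factor, at 21650 ± 163 against 9074 ± 260 and 9063 ± 278. In contrast S100A4, a calcium-binding protein tied to motility, was at 1699 ± 124 against 8842 ± 311 and 4931 ± 622. Without replicate 4 of EV-B and replicate 3 of H3 these counts were 9 and 6. Of 34 matrix genes 10 were higher and 5 lower (11 and 9 without the same libraries), with COL6A2, a collagen VI chain, at 1897 ± 99.9 against 753.7 ± 15.5 and 312.1 ± 64.2.

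Some of these values may include reads of other genes, since strand was not stated. Annotated genes on the opposite strand overlap, among others, LIF, CCND1, PLAU, CDKN1A, TNFAIP3, PLK1, HMMR, KIF4A, EDEM1, DDIT4, CA9 and RSAD2. Such genes also overlap CDH2, TAGLN, CTGF, LAMA4, GPR65, VIM, CD44, ERBB2, EGFR, IER3 and BBC3. AKR1C1, HIST1H2AC, HSPA6, MT1A and MT1E have close paralogs whose reads may be split between them.

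**Figure D3:**
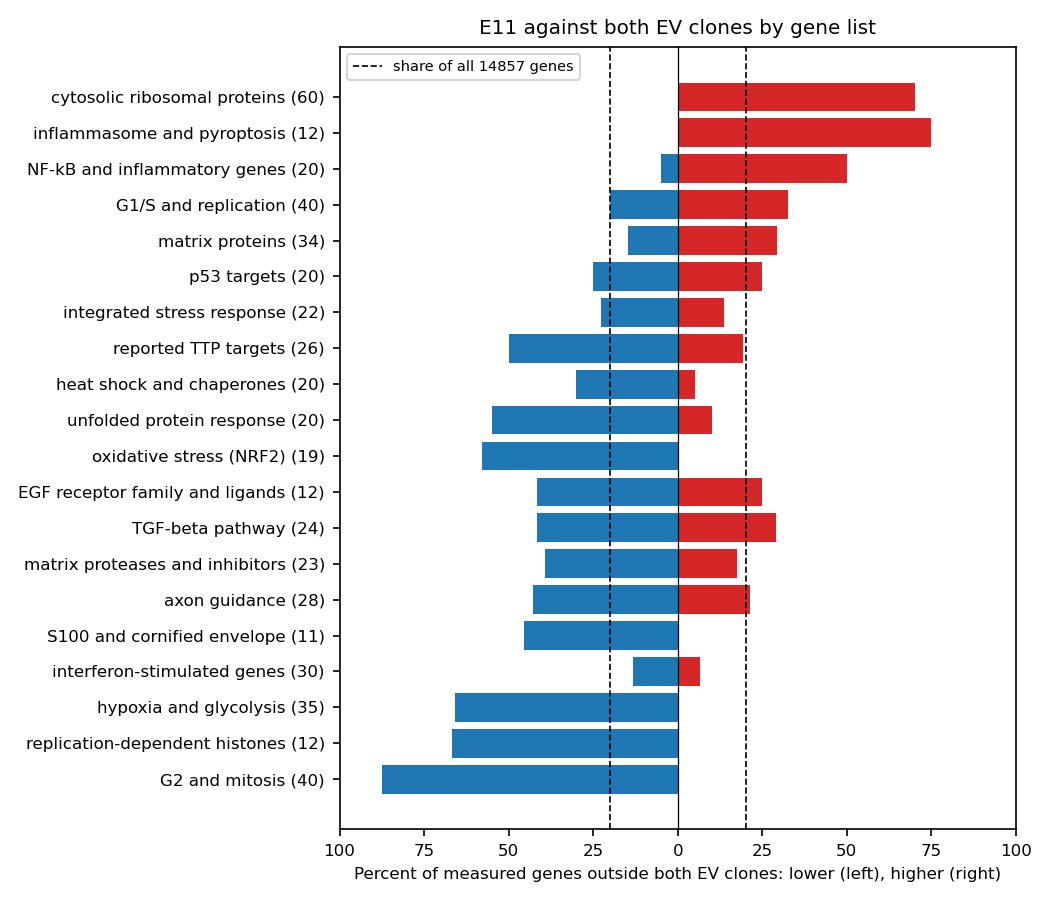
Share of the measured genes of 20 lists (number measured in brackets) that lay outside both EV clones in E11, lower to the left in blue and higher to the right in red, in percent. Dashed lines mark the shares over all 14857 genes, 20% lower and 20.2% higher; G2 and mitosis and the histones extend far to the left, and ribosomal proteins and inflammasome genes far to the right.

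What was particular to E11 was asked with H3 added. H3 carried the same plasmid, with ZFP36 at 14370 ± 811 normalized counts against 10480 ± 337 in E11 (SD, n = 4 each; difference E11 minus H3 -0.45 log2 units, limma adjusted p = 1.71e-06). E11 minus H3 passed at 1735 genes (11.7%), 791 higher (5.32%) and 944 lower (6.35%) in E11. A gene was called apart when it was outside both EV clones, E11 also differed from H3 with the same sign, and all 4 E11 libraries lay beyond the 12 others. This held for 544 genes (3.66%), 265 higher (1.78%) and 279 lower (1.88%). With upper quartile scaling the split was 333 higher and 239 lower, which turned the larger direction. With at least 1 log2 unit from each clone there were 21 higher (0.141%) and 16 lower (0.108%). The count was 938, with 433 higher and 505 lower, without replicate 4 of EV-B and replicate 3 of H3. The comparisons of E11 and of H3 with EV share the EV libraries.

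VWA5A had the largest smallest difference among the higher genes apart from all 3 clones. The H3 libraries had 5.047, 9.164, 22.94 and 15.35, between the EV values and the 181.9 ± 11 of E11 (E11 minus H3 3.87, limma adjusted p = 2.98e-09). ARMCX2, an X-linked gene with armadillo repeats, had 832.5, 866.1, 973.2 and 879.3 in E11. It had 110.4 ± 19.4 in EV-A, 124.2 ± 17.4 in EV-B and 302.4 ± 18.2 in H3. NRCAM, a neuronal cell adhesion molecule, was at 261.4 ± 29.2 in E11 against 74.12 ± 10.1, 78.64 ± 9.55 and 95.05 ± 14.6 in EV-A, EV-B and H3. The neurexin gene NRXN3 had 137 reads in E11 and 23 in the EV libraries (ratio 12.1, 7.73 to 19.7) and 8.394 ± 1.54 normalized counts in H3 against 33.95 ± 6.64 in E11. Thus VWA5A and ARMCX2 had intermediate levels in H3, whereas NRCAM in H3 was near the EV clones. NRXN3, and ADAMTS1 and GMFG below, had means above 9.68 in E11 only. That value is the lowest mean over all libraries of any listed gene, so E11 alone lifted them over it.

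Several further genes of this class encode enzymes or signalling proteins. ADAMTS1, a protease that cleaves proteoglycans, had 60.18, 48.06, 50.94 and 47.93 in E11. It had 17 reads over the 8 EV libraries and 3.028, 6.873, 19.95 and 6.319 normalized counts in H3, the highest being replicate 3. GLB1L2, related to beta-galactosidase, was at 135 ± 14.4 in E11, 36.43 ± 5.76 in EV-A, 12.08 ± 3.98 in EV-B and 21.2 ± 10.6 in H3. DIRAS1, a small GTPase, was at 55.43 ± 9.36 against 15.46 ± 3.27, 12.35 ± 2.35 and 11.11 ± 0.867 in the same order. GPR65, a receptor that senses protons, was at 92.17 ± 9.55 in E11 and 28.95 ± 9.4 in H3. NFATC4 and APBA2 were also apart, at 15.16 ± 4.75 and 18.97 ± 13.9 in H3 against 58.51 ± 7.7 and 118.7 ± 13.1 in E11. GMFG, a regulator of branched actin, had 40.12, 35.31, 55.4 and 53.46 in E11 and 5.907 ± 2.13 in H3; it lies at 39328353 to 39342372 of chromosome 19, close to ZFP36 at 39406813 to 39409412.

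Among the lower genes, some were at or above the EV level in H3. CPNE7 was at 150.8 ± 26.7 in H3 against 8.096 ± 3.52 in E11, and H3 was thus above both EV means. ZNF334, a zinc-finger gene, had 10.03, 16.68, 11.62 and 15.67 in E11. It had 60.59 ± 2.16 in EV-A, 49.92 ± 9.06 in EV-B and 84.01 ± 12.6 in H3. WT1, a transcription factor of kidney and gonad development, was at 27.13 ± 9 in E11 against 108.6 ± 2.53, 158.2 ± 23.1 and 62.46 ± 8.42, and overlaps WT1-AS. FOXA2, a forkhead factor of endoderm, was at 9.444 ± 3.54 against 70.25 ± 11.9, 39.67 ± 15 and 20.67 ± 4.97. APOBEC3G, a cytidine deaminase that restricts retroviruses, was at 10.64 ± 3.45 against 38.33 ± 10, 28.2 ± 12.3 and 30.06 ± 6.62. ALDH1L1, an enzyme of folate metabolism with annotated antisense genes, was at 4.788 ± 1.73 against 20.98 ± 8.26, 16.36 ± 5.6 and 20.91 ± 6.02. TFF2 in H3 was at 5.486 ± 0.833 with a mean below both EV means as well, while TRIM61 in H3 was at 25.63 ± 8.98, near EV-B.

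**Figure D4:**
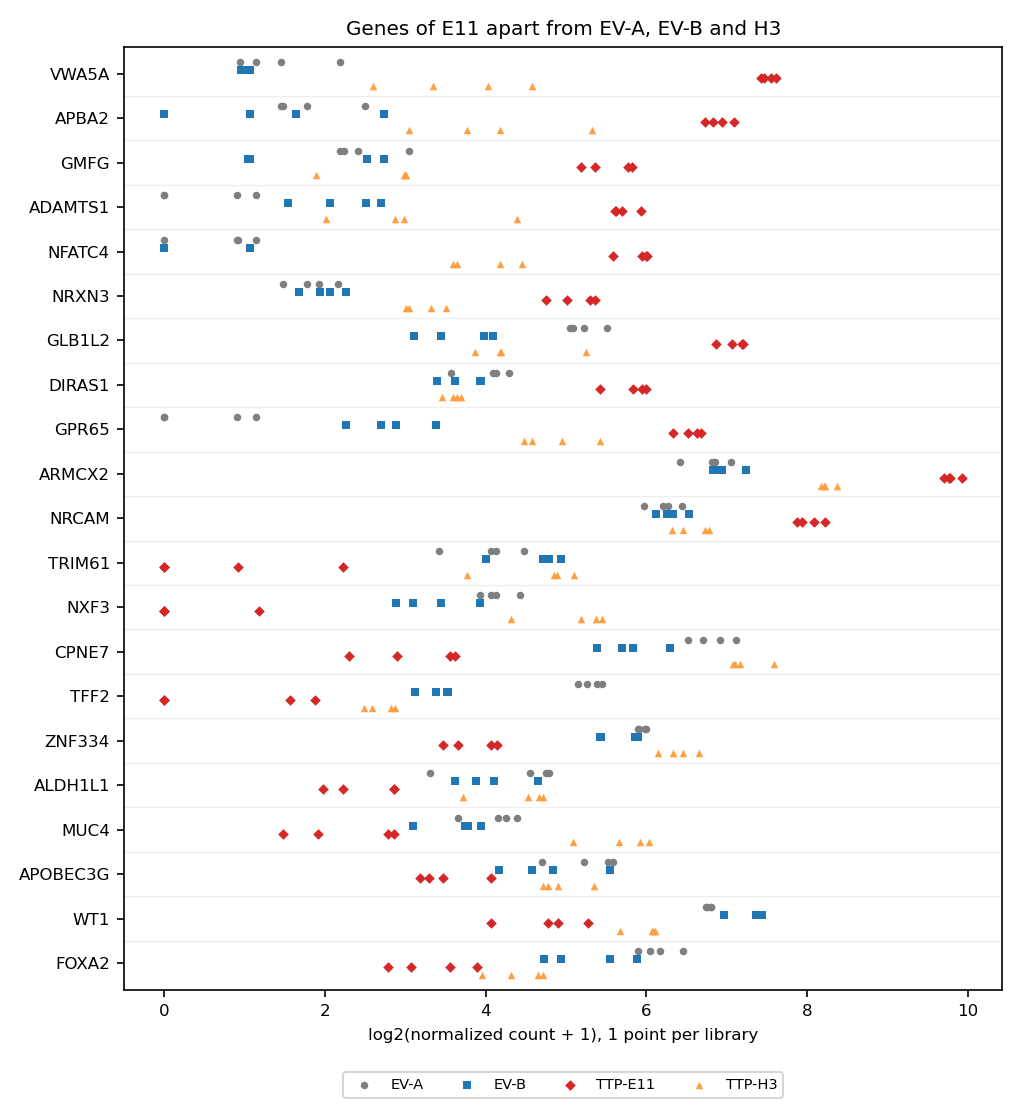
Log2(normalized count + 1) in each of the 16 libraries for the 11 higher and 10 lower named genes in which E11 (red diamonds) lay beyond EV-A (grey circles), EV-B (blue squares) and H3 (orange triangles). The E11 points do not overlap the other clones, and H3 lies between EV and E11 for VWA5A, GPR65 and ARMCX2 but beyond EV on the other side for ZNF334 and MUC4.

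A gene was called on opposite sides when E11 was outside both EV clones and H3 differed from EV-A and from EV-B with the other sign at an adjusted p under 0.05, without a rule on the range of the H3 libraries. This held for 12 genes (0.0808%), 4 with E11 higher (0.0269%) and 8 with E11 lower (0.0538%). This count was 19 without replicate 4 of EV-B and replicate 3 of H3. The membrane mucin MUC4 had 6.269, 5.885, 1.787 and 2.765 in E11. It had 16.56 ± 3.6 in EV-A, 11.73 ± 2.93 in EV-B and 51.68 ± 14 in H3. NXF3 was at 34.32 ± 10.6 in H3, where E11 had 1 read, and the lowest H3 library (18.95) was below the highest EV library (20.42). The noncoding VPS9D1-AS1 was at 156.5 ± 15.7 in E11, 63.75 ± 6.15 in EV-A, 57.89 ± 12 in EV-B and 28.41 ± 9.03 in H3, but it overlaps VPS9D1 on the other strand. The noncoding LINC01615 was at 155 ± 9.23, 99.71 ± 8.74, 85.61 ± 15.3 and 55.34 ± 14.2, and IL31RA, a receptor chain for interleukin 31, at 236.9 ± 24.2, 157.5 ± 12.9, 171.5 ± 10.5 and 127 ± 9.1, in the same order. For LINC01615 the highest H3 library (70.65) was above the lowest EV library (64.69).

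The genes apart from all 3 clones were also counted by list, beside the backgrounds of 1.78% higher and 1.88% lower. Of the 26 reported TTP targets 0 were higher and 7 lower. These were LIF, CCND1, PLAU, PLAUR, IER3, CCNB1 and CXCL8, with E11 minus H3 between -0.69 (CXCL8) and -0.12 (CCNB1). For LIF the H3 libraries had 345.2, 381.5, 422 and 372.8, above the highest E11 library at 295.8 and below all EV libraries. Of 40 mitotic genes 9 were lower, among them KIF4A, a chromosome-associated kinesin, at 1831 ± 63.2 in E11, 2379 ± 149 in H3, 2513 ± 63.8 in EV-A and 2881 ± 46.2 in EV-B. Of 12 histone genes 4 were lower and of 60 ribosomal protein genes 5 were higher. Without replicate 4 of EV-B and replicate 3 of H3 the counts were 7 targets, 9 mitotic, 4 histone and 14 ribosomal protein genes, with the background then at 433 higher and 505 lower genes.

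Of 23 matrix proteases and their inhibitors 3 were higher and 4 lower apart from all clones. The higher ones were ADAMTS1, ADAMTS6 and SERPINE2, and the lower ones PLAU, PLAUR, PLAT and TIMP3. Of these, ADAMTS1 had a mean above the lowest listed mean of 9.68 in E11 only. PLAT, tissue plasminogen activator, had 1444, 1619, 1575 and 1569 in E11. The levels were 2284 ± 36.8 in EV-A, 1935 ± 99.8 in EV-B and 2289 ± 299 in H3, so that H3 was near EV-A. LAMA4, a laminin chain, was at 88.66 ± 7.15 in E11 and 40.75 ± 4.32 in H3 against 29.6 ± 6.49 and 28.49 ± 5.2. KDR, a VEGF receptor, was at 153 ± 11.2 and 104.5 ± 13.6 against 46.59 ± 4.76 and 42.43 ± 9.34. The semaphorin gene SEMA3A, a repulsive axon guidance cue, was at 476.9 ± 27.4 and 349.9 ± 39.9 against 255.8 ± 24.2 and 205.6 ± 9.69.

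Positions on the genome were examined for genes apart from all 3 clones. Among 14362 windows of 20 neighbouring listed genes, the window at the short-arm end of chromosome 7 (7, 135853 to 1543043, GRCh38) held 10 such genes that were lower. Windows that did not overlap it held at most 3 lower or 5 higher genes. A window with 5 higher genes, from MAD1L1 to SLC29A4 (1815793 to 5306870), was also on chromosome 7, just beyond the first. The stretch from FAM20C to ZFAND2A (192969 to 1160759) was chosen after its values were seen and has no test. It held 13 listed genes, of which 12 had an E11 mean difference below 0, 9 were apart and lower, and 0 were apart and higher. Among the 12, C7orf50 was at 1762 in E11, between EV-A (1713) and EV-B (2168). The median over the 13 was -0.72 for E11 minus EV, -0.01 for H3 minus EV and -0.23 for EV-B minus EV-A. Without replicate 4 of EV-B and replicate 3 of H3, 9 of the 13 were again apart and lower.

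FAM20C, a kinase of secreted proteins, had 525.3, 473.8, 492.4 and 525.4 in E11. It had 2013 ± 70.4 in EV-A, 1386 ± 104 in EV-B and 777.9 ± 51.5 in H3. SUN1, a protein of the inner nuclear membrane, was at 2208 ± 60.8 in E11 against 4568 ± 109, 3635 ± 105 and 3123 ± 141. DNAAF5, a dynein assembly factor, was at 953.5 ± 40.5 against 1584 ± 49, 1626 ± 32 and 1321 ± 83.8. Their log2 differences from EV were -1.73, -0.88 and -0.75 (limma adjusted p = 2.89e-24, 1.66e-21 and 2.59e-17). The growth factor gene PDGFA, the tail-anchored protein factor GET4, the copper chaperone COX19 and the estrogen-binding receptor GPER1 had log2 differences of -1.23, -0.67, -0.60 and -1.49. The kinase regulator PRKAR1B and the stress-associated zinc-finger gene ZFAND2A were at -0.35 and -0.30. SUN1 and GET4, and ADAP1 and COX19, overlap on the same strand, and DNAAF5 and PRKAR1B on opposite strands. Beyond ZFAND2A, MICALL2 was at 701.3 ± 34.6 in E11 against 758.8 ± 60.3 and 611.1 ± 44.4, and INTS1, a subunit of the Integrator complex, was higher at 4281 ± 93.4 in E11 against 2906 ± 35.4, 2980 ± 73.5 and 2949 ± 193 in EV-A, EV-B and H3. Further along, MRM2, NUDT1 and SNX8 were also apart and higher, with log2 differences from EV of 0.46, 0.35 and 0.33. Copy number was not tested.

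**Figure D5:**
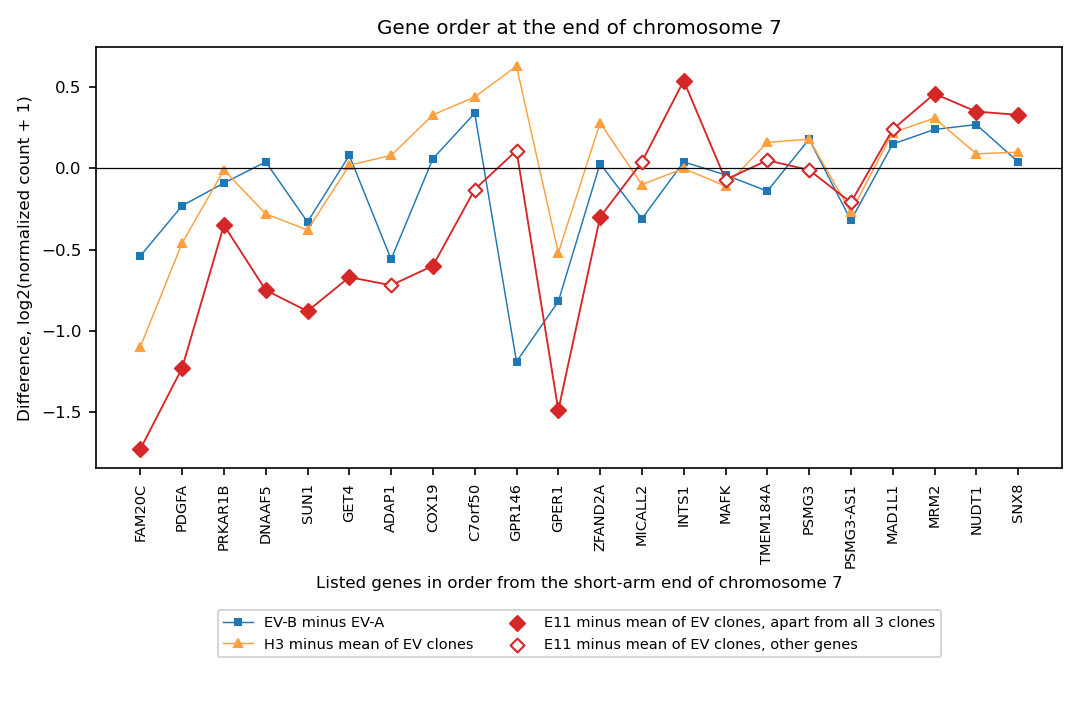
Log2 difference per listed gene in order from the short-arm end of chromosome 7, for E11 minus the mean of the EV clones (red diamonds, filled where E11 was apart from all 3 clones), H3 minus the same mean (orange) and EV-B minus EV-A (blue). E11 lies below 0 from FAM20C to ZFAND2A except at GPR146, and INTS1 is higher by 0.54.

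Immunoglobulin transcripts differed between clones in another pattern. IGHV3-15, a heavy-chain variable gene, had 442.6, 463, 452.2 and 459 in E11. It had 316.3 ± 22.8 in EV-A and 359.1 ± 14.6 in EV-B but 4.281 ± 0.31 in H3. IGHG2 was at 437.3 ± 42.3 in E11 and 511.5 ± 32.4 in EV-A, but at 5.801 ± 0.378 in EV-B and 6.379 ± 1.96 in H3. IGLC3 followed IGHG2, at 79.48 ± 16.7 in E11, 89.78 ± 21.7 in EV-A and 0.7941 ± 1.59 in EV-B, with 0 in all H3 libraries. The averaged log2 differences of 2.89 and 2.82 for IGHG2 and IGLC3 thus rested on EV-B, and E11 was not outside both clones. IGKC went the other way, with a log2 difference of -0.53. It was at 250.8 ± 18.8 in E11, 274.1 ± 9.89 in EV-A and 487.2 ± 90.9 in EV-B. IGHG1 did not pass, at 635.9 ± 69.5 in E11, 707.6 ± 48.4 in EV-A and 665.6 ± 52.3 in EV-B. Immunoglobulin genes resemble one another, so the gene behind a read is uncertain.

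Markers of cells that make immunoglobulin were read beside these values. Of 20 B and plasma cell markers 4 were listed (CD22, CR2, PRDM1 and SDC1), and their summed level was 2560 to 2764 in E11, 2652 to 2720 in EV-A, 3369 to 3571 in EV-B and 2642 to 3202 in H3. Most of that sum was SDC1, syndecan 1, which epithelial cells also express, at 2379 in E11. MS4A1, CD79A and JCHAIN were not among the genes analysed here. Of 21 T and NK markers 2 were listed (67.28 to 87.3 in E11, 44.16 to 60.34 in EV-A, 59.24 to 70.42 in EV-B), of 17 myeloid and leukocyte markers 5 (275.8 to 326.2, 581.1 to 676.3 and 519.1 to 617.3) and of 11 fibroblast markers 6 (512.8 to 695, 721.3 to 860 and 398.6 to 541.4), in the same order. Endothelial markers were 2 of 11, KDR and ESAM, and their summed level was higher in E11, at 371.1 to 421.2 against 192.2 to 202.4 in EV-A and 180.5 to 216 in EV-B. Whether cells other than the line contributed was not tested.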

How the data were processed

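RNA was sequenced from 4 cultures of each of 4 clones, with libraries made by the NEBNext Ultra II kit. Per the submitters' processing notes, the tools were STAR 2.5.2b, Trimmomatic 0.36, Subread 1.5.2, featureCounts and DESeq2 with build GRCh38, in no stated order. Each value column of the deposited table holds a signal, a gene's read count divided by the library's size factor by the authors. The authors' deposited table also holds log2 fold changes and p-values of TTP against EV, which were not used for any result. The values were whole multiples of 1 read's worth within a tolerance of 0.001, which gave back the reads. In replicates 1 and 3 of H3 that worth is so near 1 (1.009 and 0.9975) that the check is weak, and count tests used the other 14 libraries.

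Differences were tested with limma 3.58.1 (trend and robust, R 4.3.3) on log2(value + 1), with all 16 libraries in 1 fit of 4 clone means and Benjamini-Hochberg adjustment over 14857 genes at 0.05. The lowest mean over the libraries was 9.68, and no gene of the deposited table was filtered here. NRXN3, GMFG and ADAMTS1 had means above 9.68 in E11 only. The alternatives were edgeR 4.0.16, DESeq2 1.42.0, other pseudocounts, scalings, filters and controls, the replicate number as a block, and each library left out. Positions and 3′ UTRs came from GENCODE 29, which matched 14820 genes. Read ratios have exact binomial 95% intervals.

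Named genes were taken from the sets that follow, and not every member of a set is given. These were the ZFP36 family and the 12 per direction with the largest smallest difference over the contrasts of a class (5 for opposite sides). Others were up to 4 passing members per list with the largest difference and members apart from all clones. Members of lists of 8 or fewer and genes at the chromosome 7 end were also used. Genes with clone-based identifiers were counted and not named. The genes, lists and tests were chosen with earlier results of these data known. The comparison of E11 with EV and the rule for genes outside both EV clones were tried on simulated data without H3. The EV clones had a common mean there, and the classes apart and on opposite sides were not simulated.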

Additional observations from a re-analysis of the deposited data

Results flagged for a closer look

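Single libraries stood apart from the other 3 of their clone by a gap test (Dixon, 95%), which chance alone meets in about 1 in 20 groups. Of 220 gene and clone groups, 17 met it, and 8 of these were in replicate 3 of H3. That library was the highest of H3 for CPNE7 (190.5 normalized counts, next 142), GLB1L2 (36.91, next 17.18), KISS1 (4275, next 1686), MMP1 (11555, next 6076) and PDE1C (176.6, next 45.13). It was the lowest for FLG (121.7, next 367.4), GGT5 (19.95, next 58.42) and WT1 (49.88, next 65.9). In H3, ADAP1 was lowest in replicate 1 (26.24) and GMFG in replicate 4 (2.708). Within E11, NFATC4 was low in replicate 2 (47.08, next 60.83) and NXF3 was at 1.254 in replicate 1 and 0 in the others. The remaining cases were EV libraries with 1 or 2 reads: MYCT1 in replicate 1 of EV-A (1.206) and replicate 4 of EV-B (1.881), PDE1C in replicate 1 of EV-A (1.206), NFATC4 in replicate 1 of EV-B (1.1) and NKX2-1 in replicate 3 of EV-B (0.9513).

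The TTP clones differed from each other at genes already given, by the limma test of E11 minus H3. There were 544 genes apart from all 3 clones and 12 on opposite sides of EV. Log2 differences of E11 minus H3 were 3.87 for VWA5A, 2.82 for APBA2, 2.81 for GMFG, 2.71 for GLB1L2, 2.65 for ADAMTS1 and 2.21 for DIRAS1. They were 1.92 for NFATC4, 1.89 for NRXN3, 1.68 for GPR65, 1.55 for ARMCX2 and 1.46 for NRCAM. Lower in E11 were NXF3 (-4.79), CPNE7 (-4.14), TRIM61 (-3.87), MUC4 (-3.42), ZNF334 (-2.57) and ALDH1L1 (-1.92). Smaller differences were found for TFF2 (-1.83), APOBEC3G (-1.44), WT1 (-1.23) and FOXA2 (-1.09). Of the genes on opposite sides with E11 higher, IGHV3-15 differed by 6.43, VPS9D1-AS1 by 2.48, LINC01615 by 1.5 and IL31RA by 0.89.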

How the results depend on the processing

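The counts of genes stayed within 1.5 times of the reported ones under the alternatives run, apart from those given next. Without replicate 4 of EV-B and replicate 3 of H3, 938 genes were apart from all 3 clones and 19 were on opposite sides of EV. Requiring at least 1 log2 unit left 705 genes outside both EV clones and 37 apart. Leaving out each library in turn gave 9075 to 9882 calls against EV, 5918 to 6319 outside both, 441 to 772 apart and 9 to 15 on opposite sides. edgeR called 720 genes apart, of which 436 were among the 544, and DESeq2 called 625, of which 399 were. Both left out replicates 1 and 3 of H3. With replicate 3 of H3 alone left out, limma called 772 genes apart. The cause of these differences was not tested. Upper quartile scaling gave 57.9% higher among genes outside both (50.2% as reported) and 58.2% among those apart (48.7%). Without H3 in the fit 9900 genes passed and 6067 were outside both. With the replicate block the counts were 9557, 5944 and 528. Same-numbered libraries had correlations of -0.088 to 0.096, with 0 of 24 pairs over 0.1, so the numbers were not taken as pairs. Of the named genes, GPR146 (-0.072 to 0.4) and PRDM1 (-0.146 to 0.042), neither of which passed, changed sign with a library left out. Genes with few reads have levels set largely by counting error. Each genotype here is 1 or 2 clones, so clone and plasmid cannot be told apart.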
